A study of Mus musculus with 6 samples.

Results

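The enzymes that place and remove chemical marks on histones were followed in mouse N2A cells after Pax6 knockdown. The set was defined by gene names, chosen with earlier results of these data known. It took the Hdac, Sirt1 to Sirt7, Kdm, Kmt2, Kmt5, Kat, Setd, Ezh and Prmt families apart from 1 Kdm gene. A few further enzymes and polycomb subunits were named individually (Ehmt1, Ehmt2, Suv39h2, Dot1l, Nsd1, Ep300, Crebbp, Eed and Suz12). Together these names gave 78 of the 19938 genes with a probe set of their own. They were divided into 43 writers, which add a mark, and 35 erasers, which take it off. Suv39h1, which belongs to the same group of enzymes, was not analysed here. N2A (neuro 2A) is an established mouse neuroblastoma line. The control cells were transiently transfected with a non-targeting control vector and the other cells with a Pax6 knockdown construct, a vector that expresses a short hairpin RNA against this neurodevelopmental transcription factor. Both groups otherwise received the same treatment, and total RNA was taken 3 days later. There were 3 control and 3 Pax6 knockdown samples, each on 1 whole-transcript array. The labels number them 1 to 3 in each group, and the methods call them biological replicates. The spread behind each p-value is that between samples within a group, which limma moderates toward the spread over all tested genes. Where the replicate number was fitted as a block, it is the spread left after that number is taken out. Transient transfection gives a mixed culture, and in such bulk RNA fewer cells of a type and less RNA per cell cannot be told apart.

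Histones are the proteins around which DNA is wound. Acetyltransferases neutralise lysines on their tails and mark open chromatin, and deacetylases (the HDACs and the NAD-dependent sirtuins) reverse this. Lysine and arginine methyltransferases leave the charge in place, and their effect depends on the residue: methylation of lysine 4 on histone H3 (H3K4) marks active promoters and enhancers, H3K9 and H3K27 methylation mark silenced chromatin, H3K36 and H3K79 methylation follow transcribed genes, and H4K20 methylation is tied to the cell cycle and chromosome compaction. Lysine demethylases remove methyl groups. In neural cells the balance of these enzymes is known to take part in keeping progenitors dividing and in their differentiation.

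Pax6 itself was lower in every knockdown sample. It read 8.79, 8.82 and 8.81 on the log2 scale in the controls and 8.48, 8.30 and 8.50 in the knockdown samples, and was 23.2% lower (limma adjusted p = 0.0382). That call was lost when control replicate 1, 2 or 3 or knockdown replicate 3 was left out (adjusted p of 0.120, 0.180, 0.141 and 0.126). Of 12 sympathetic neuroblastoma markers, 11 were tested and 3 (27.3%) were called at a false discovery rate (FDR) of 10%, against 6.67% of all tested genes: Dbh, Chga and Isl1 were lower by 1.08, 0.30 and 0.35 log2 units. Gata3 and Th had differences of -0.21 and -0.22 that missed the threshold (adjusted p of 0.150 and 0.318, and 0.0703 and 0.102 with the replicate number as a block). Hand2 and Gata2, defining transcription factors of this lineage, lay between 11.74 and 12.32 on all 6 arrays. Of the markers of other cell types, 2 of 6 fibroblast, 0 of 5 measured immune and 1 of 4 measured glial genes reached the level at which genes were tested. Proliferation genes had overlapping levels as a list (mean log2 level 10.97 to 11.04 in the controls and 10.99 to 11.13 in the knockdown samples). Their difference was positive in 19 of 23 (82.6%, against 55.5% of all tested genes). Limma called 2 of 23 (8.70%), both higher: E2f2 by 0.23 and the replication helicase subunit Mcm2 by 0.21. Ccne2 (-0.22) and Mcm6 (0.20) were not called (adjusted p of 0.244 and 0.218, and 0.0923 and 0.0735 with the block). The part of these shifts in the results below was not tested.

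Of the called members, Kmt5a and Hdac9 are shown because their promoter entry ended exactly at the RefSeq start of the gene. Both were higher, but the DNA just before their starts differed. No promoter entry was matched for Hdac1, the called member that was lower. Each sequence is the 250 bases before the start in assembly GRCm38.p6, 5′ to 3′ on the strand of the gene, and capitals mark matches to the motifs described after it. Kmt5a lies at chr5:124439680-124439929 on the plus strand and Hdac9 at chr12:34917096-34917345 on the minus strand.
Kmt5a: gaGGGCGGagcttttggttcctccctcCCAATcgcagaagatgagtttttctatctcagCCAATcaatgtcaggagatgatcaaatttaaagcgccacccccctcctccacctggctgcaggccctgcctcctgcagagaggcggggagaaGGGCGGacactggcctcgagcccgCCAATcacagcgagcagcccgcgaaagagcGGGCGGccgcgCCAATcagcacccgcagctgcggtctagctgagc
Hdac9: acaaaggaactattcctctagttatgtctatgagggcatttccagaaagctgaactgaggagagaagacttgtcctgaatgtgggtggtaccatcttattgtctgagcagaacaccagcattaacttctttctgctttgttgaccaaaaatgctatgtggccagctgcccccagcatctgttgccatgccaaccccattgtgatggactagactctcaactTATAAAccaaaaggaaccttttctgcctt
The Kmt5a window held 16 CpG dinucleotides, 4 CCAAT boxes and 3 GC boxes (GGGCGG), and no TATA box. The Hdac9 window held 0 CpG dinucleotides, no CCAAT or GC box and 1 TATA box (TATAAA). Both genes have further starts in RefSeq, and which of them N2A cells use was not measured. Kdm4a, the third member that was higher, had 12 CpG dinucleotides and 1 CCAAT box in its window. Motifs were searched on both strands by exact letters. A RefSeq promoter entry was matched for 65 of the 78 members. A GC box occurred in 38 of them (58.5%, against 32.7% of all 32851 windows of this length), a CCAAT box in 26 (40% against 33.8%) and a TATA box in 4 (6.15% against 12.4%). The E-box CACGTG occurred in 6 members (9.23% against 6.02%) and the E2F site TTTCCCGC in 3 (4.62% against 0.895%). The members' windows were rich in CpG, with a median of 16 against 6 over all windows, and the GC box itself contains a CpG. These are matches of letters, not measured binding sites.

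Most of the enzymes were expressed. Testing required a value higher than the array's own median in 3 or more of the 6 samples, and 73 members met this, 41 writers and 32 erasers. The 5 below this level were the deacetylase Hdac8 (7.43, 7.04 and 7.34 in the controls against 7.85, 7.26 and 7.41), the demethylases Kdm4d (6.36 to 6.50) and Kdm5d (6.04 to 6.12), the arginine methyltransferase Prmt8 (5.61 to 6.00) and the H3K36 methyltransferase Nsd1 (6.17 to 6.50). No statement on a change is made for these.

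Few of the tested enzymes were called. At 10% FDR with Benjamini-Hochberg adjustment over all 11424 tested genes, limma called 4 of 73 members (5.48%), against 6.67% of all tested genes. Kmt5a, Hdac9 and Kdm4a were higher and Hdac1 was lower. By direction, 2.79% of all genes were called higher and 3.88% lower. The writers gave 1 of 41 (2.44%) and the erasers 3 of 32 (9.38%), below and above the share of all genes. Whether either differs from that share was not tested. Over all 73 members the share was near the background, so the calls are not read as a property of the set. At an unadjusted p under 0.05 there were 15 members of 73, against 2146 of all 11424 genes.

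**Figure D1:**
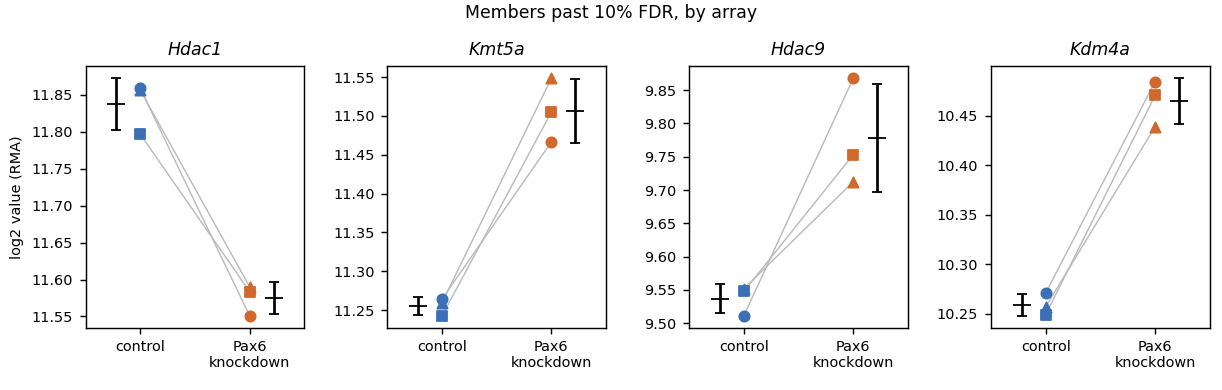
Log2 RMA value (vertical axis, scaled per gene) of the 4 members past 10% FDR in the control (blue) and Pax6 knockdown (orange) arrays. Circles, squares and triangles are replicates 1, 2 and 3, grey lines join samples of the same number, and black marks give mean ± SD (n = 3). The groups do not overlap in any of the 4 genes, and Hdac1 is the one that is lower.

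Hdac1, the class I deacetylase that forms the catalytic core of the SIN3, NuRD and CoREST repressor complexes, read 11.86, 11.80 and 11.86 in the controls and 11.55, 11.58 and 11.59 in the knockdown samples. All 3 knockdown values lay below all 3 controls, by a gap larger than the spread within either group. The mean fell from 11.84 ± 0.035 to 11.57 ± 0.021 (SD, n = 3), a log2 difference of -0.26 (SE 0.056, 95% confidence interval -0.39 to -0.13, limma adjusted p = 0.0540), which is 16.6% lower. A second probe set that the annotation gives to Hdac1 read 11.79, 11.72 and 11.78 against 11.47, 11.49 and 11.52, a difference of -0.27. Whether the probes of these sets are shared was not tested, so they are not counted as separate measurements. When control replicate 1, 2 or 3 was left out the adjusted p of Hdac1 was 0.155, 0.184 and 0.190, when knockdown replicate 1 or 3 was left out it was 0.101 and 0.188, and the difference stayed between -0.28 and -0.25.

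The other tested class I deacetylases were not called. Hdac2, its close paralogue and partner in the same complexes, read 11.77, 11.88 and 11.89 against 11.86, 11.85 and 12.02, a difference of 0.06 (95% interval -0.10 to 0.23). Hdac3, the catalytic subunit of the NCOR complexes, read 12.12, 12.07 and 12.04 against 12.06, 11.95 and 11.98, a difference of -0.08 (-0.22 to 0.06, adjusted p = 0.567). The groups overlapped for both. Whether Hdac1 and Hdac2 differ in their response was not tested.

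Hdac9, a class IIa deacetylase that shuttles between nucleus and cytoplasm and binds MEF2 transcription factors, read 9.51, 9.55 and 9.55 in the controls and 9.87, 9.75 and 9.71 in the knockdown samples. Every knockdown value lay above every control, and replicate 1 held both the lowest control and the highest knockdown value. The mean went from 9.54 ± 0.022 to 9.78 ± 0.081, a log2 difference of 0.24 (SE 0.064, 95% interval 0.09 to 0.39, adjusted p = 0.0909), or 18.2% higher. The adjusted p was 0.217, 0.279 and 0.233 without control replicate 1, 2 or 3, 0.163 and 0.199 without knockdown replicate 1 or 3, and 0.105 when each array was centred on its median.

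The remaining class II and IV deacetylases had differences of either sign, none past the threshold. Hdac4 and Hdac5, the closest relatives of Hdac9 in class IIa, had differences of 0.20 (95% interval 0.03 to 0.36) and 0.15 (0.005 to 0.29), with adjusted p of 0.186 and 0.252 and no overlap between the groups. A second Hdac4 probe set gave 0.21 with overlapping groups. Hdac10, a class IIb enzyme known to act on polyamines, read 9.33, 9.48 and 9.50 against 9.31, 9.08 and 9.16. Its knockdown values all lay below the controls, although control and knockdown replicate 1 differed by little, and the difference was -0.26 (SE 0.081, adjusted p = 0.137). With the replicate number as a block the adjusted p was 0.0890. The class IIa enzyme Hdac7 (0.07), the tubulin deacetylase Hdac6 (-0.07) and the class IV enzyme Hdac11 (-0.03) had intervals that included 0. With Hdac9 counted, the groups did not overlap in 5 of the 7 class II and IV genes, against 25.6% of all tested genes. Of these, 3 were higher and 2 lower, among them Hdac11 with its small difference.

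No sirtuin passed 10% FDR in limma. An unadjusted p under 0.05 was found for 2 of 7 and for 2146 of all 11424 tested genes. Sirt2, mainly a cytoplasmic deacetylase that also removes H4K16 acetylation, read 10.84, 10.73 and 10.69 against 11.02, 10.92 and 11.01 (difference 0.23, SE 0.0665, adjusted p = 0.110). Sirt6, a chromatin-bound H3K9 deacetylase with a role in DNA repair, read 11.56, 11.49 and 11.50 against 11.80, 11.66 and 11.76 (difference 0.22, SE 0.064, adjusted p = 0.110). In both genes the groups did not overlap, and with the replicate block the adjusted p was 0.0480 and 0.0467. Sirt7, a nucleolar sirtuin, had a difference of -0.20 (adjusted p = 0.357, and 0.0822 with the block). Sirt1 (-0.04), the mitochondrial Sirt3 (0.02), Sirt4 (0.08) and Sirt5 (-0.04) had intervals that included 0.

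Among the demethylases Kdm4a was called. This JmjC enzyme, which acts on H3K9 and H3K36, read 10.27, 10.25 and 10.26 in the controls and 10.48, 10.47 and 10.44 in the knockdown samples. The values within a group lay close together and the groups were well apart. The mean rose from 10.26 ± 0.011 to 10.46 ± 0.023, a log2 difference of 0.21 (SE 0.055, 95% interval 0.08 to 0.33, adjusted p = 0.0918), or 15.3% higher. The adjusted p was 0.189, 0.302 and 0.255 without control replicate 1, 2 or 3 and 0.158 and 0.238 without knockdown replicate 1 or 3, and with array centring it was 0.137.

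Of the 15 tested demethylases, 12 had a positive difference (80%, against 55.5% of all tested genes), and their median was 0.11 against 0.02 over all genes. This share was not particular to them. It was 85.7% of 7 arginine methyltransferases, 82.6% of 23 proliferation genes and 74.8% of 135 tested partners and further histone modification genes. For the 20 lysine methyltransferases it was 45%. Of the demethylases, Kdm4a alone passed the threshold. Kdm5b, an H3K4 demethylase, read 9.87, 9.88 and 9.93 against 10.17, 9.97 and 10.02, a difference of 0.16 (adjusted p = 0.270) with no overlap. Kdm6b, an H3K27 demethylase known from differentiation and inflammation, read 10.58, 10.88 and 10.87 against 10.86, 11.05 and 11.07. Within each replicate number the knockdown value was the higher, but the low control replicate 1 widened the spread, and the difference was 0.22 (SE 0.101, adjusted p = 0.287, and 0.0485 with the replicate block). Its relative Kdm6a had 0.13. Kdm5a, Kdm4c and the LSD1 gene Kdm1a had differences of 0.19, 0.16 and 0.13, with adjusted p of 0.449, 0.604 and 0.394. Kdm3b (0.10), Kdm7a (0.11), Kdm4b (0.05), Kdm2b (0.05) and Kdm5c (0.02) were also above 0, and Kdm2a (-0.01), Kdm1b (-0.01) and Kdm8 (-0.08) below it, all with intervals that included 0.

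The writer called by limma without the replicate block was Kmt5a. This enzyme, also known as SET8, places the single methyl group on H4K20 and is known to be needed for S phase and chromosome condensation. It read 11.26, 11.24 and 11.26 in the controls and 11.47, 11.51 and 11.55 in the knockdown samples. The controls were nearly identical and all knockdown values lay above them. The mean rose from 11.26 ± 0.011 to 11.51 ± 0.041, a log2 difference of 0.25 (SE 0.056, 95% interval 0.12 to 0.38, adjusted p = 0.0606), or 19.0% higher. Without control replicate 1, 2 or 3 or knockdown replicate 3 the adjusted p was 0.155, 0.235, 0.193 and 0.228. Kmt5b and Kmt5c, which convert the single H4K20 methyl group to higher states, had differences of 0.05 (-0.17 to 0.26) and -0.03 (-0.17 to 0.11).

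The other lysine methyltransferases gave no call in the unblocked fit. Setd6, which methylates the RELA subunit of NF-kappaB, came next after the called members. It read 10.81, 10.73 and 10.72 against 10.95, 10.97 and 10.95, a difference of 0.21 (SE 0.057) with no overlap and an adjusted p of 0.102. Dot1l, the H3K79 methyltransferase, had the largest difference of the set at 0.28 (SE 0.085, adjusted p = 0.121). Its control replicate 1, at 10.55, stood below the other controls at 10.81 and 10.83, and the knockdown samples read 10.98, 11.02 and 11.04. Setd3, an actin histidine methyltransferase despite its SET domain, had 0.22 (adjusted p = 0.189), and its second probe set gave 0.20. With the replicate block the adjusted p of Setd6, Dot1l and Setd3 was 0.0567, 0.0393 and 0.0633. Setd5, Setd4 and Kmt2e, SET-domain proteins without a firmly assigned histone mark here, had 0.14, 0.08 and 0.08, with intervals that included 0. Setd2, the enzyme of H3K36 trimethylation, lay at the other end with -0.17 (95% interval -0.39 to 0.04, adjusted p = 0.375), and -0.19 on its second probe set.

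Polycomb repressive complex 2 (PRC2), which writes H3K27 methylation, had differences near 0. Ezh2, its main catalytic subunit in dividing cells, read 11.98, 11.99 and 11.97 against 11.94, 11.97 and 12.08, a difference of 0.02 (95% interval -0.12 to 0.16). Ezh1, the alternative catalytic subunit, read 10.62, 10.51 and 10.52 against 10.75, 10.59 and 10.59, a difference of 0.09 (-0.07 to 0.26). Suz12, a scaffold subunit, read 10.62, 10.77 and 10.86 against 10.71, 10.75 and 10.87, a difference of 0.03, and Eed, which binds the finished mark, had 0.02. The groups overlapped in all 4, and limma called 0 of them, with 0 at an unadjusted p under 0.05.

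Of the 10 acetyltransferases limma called 0, and 0 had an unadjusted p under 0.05. Kat6a (MOZ) read 10.38, 10.46 and 10.47 against 10.79, 10.52 and 10.53, with knockdown replicate 1 well above the rest, a difference of 0.17 (SE 0.085, adjusted p = 0.321). Kat7 (HBO1), known for its part in replication licensing, read 11.99, 11.86 and 11.81 against 12.23, 11.99 and 11.95, also 0.17, with an adjusted p of 0.354 and of 0.0924 with the replicate block. The coactivators Ep300 and Crebbp had differences of -0.08 and 0.01. The range over Kat14, Kat2b, Kat8, Kat2a, Kat5 and Kat6b was -0.06 to 0.10.

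Arginine methyltransferases gave 0 calls of 7 in limma, where 6.67% of all genes were called. An unadjusted p under 0.05 was found for 3 of the 7 and for 2146 of all 11424 genes. Prmt7 read 10.76, 10.81 and 10.86 against 10.95, 10.98 and 11.07 (0.19, SE 0.062, adjusted p = 0.145), and Prmt2 read 9.22, 9.12 and 8.97 against 9.44, 9.23 and 9.37 (0.25, SE 0.087, adjusted p = 0.176). In both genes the groups did not overlap. Prmt3, which methylates a ribosomal protein, had 0.28 (SE 0.106, adjusted p = 0.204) with overlapping groups. With the replicate block these 3 genes had an adjusted p of 0.0631, 0.0657 and 0.0273. Prmt1 and Prmt5, the main asymmetric and symmetric arginine methyltransferases, had -0.02 (95% interval -0.16 to 0.12) and 0.03 (-0.11 to 0.17), Prmt6 had 0.06 and Prmt9 had 0.03 (-0.44 to 0.50).

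**Figure D2:**
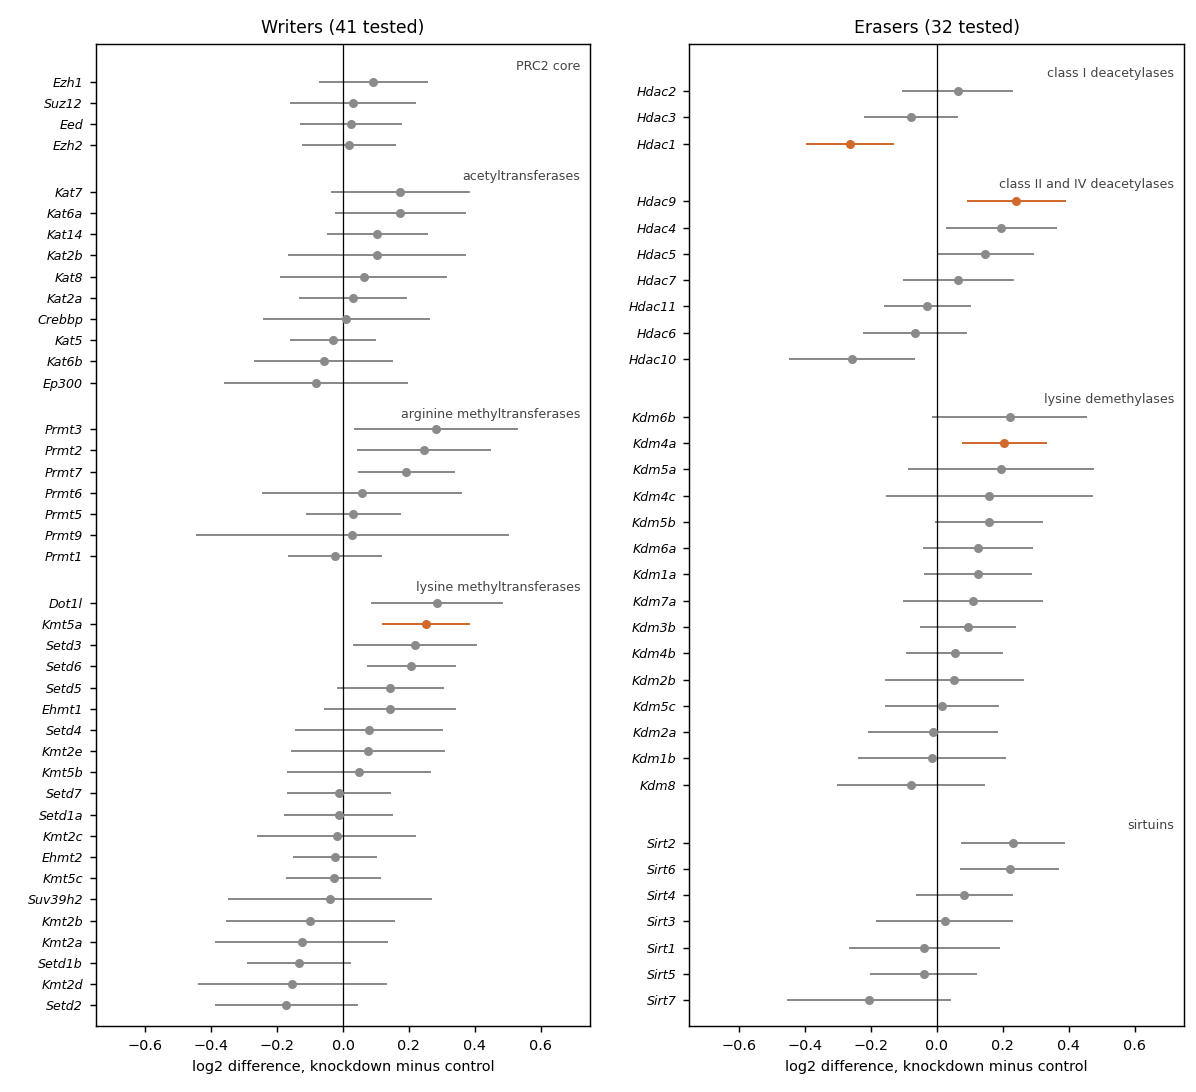
Difference between Pax6 knockdown and control (horizontal axis, log2) with its 95% confidence interval for each tested member, writers on the left and erasers on the right, grouped by class. The 4 members past 10% FDR are orange, and no difference in the set lies outside -0.26 to 0.28.

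The intervals state how large an unseen change could be. Of the 69 members not called, 58 had a 95% interval that included 0. The interval lay wholly within 0.3 log2 units of 0, a change of 23.1% upward, in 38 of them, and within 0.5, a change of 41.4% upward, in 67. The median half-width was 0.19, and the widest, 0.47, belonged to Prmt9. The median size of the difference over the 73 members was 0.084, close to the 0.086 over all tested genes.

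The replicate numbers mattered for the counts. Samples of the same number deviated together, and with this number as a block limma called 16 of 73 members (21.9%), against 17.9% of all tested genes. Of the 16, 13 were higher and 3 lower, where 8.96% of all genes were called higher and 8.91% lower. The 8 writers among them (Kmt5a, Setd6, Dot1l, Setd3, Kat7, Prmt2, Prmt3 and Prmt7) were all higher. The 8 erasers comprised Hdac9, Kdm4a, Kdm6b, Sirt2 and Sirt6, which were higher, and Hdac1, Hdac10 and Sirt7, which were lower. In this fit, too, the share called in either direction was near the background, whereas by direction the calls leaned to higher values. Whether that lean differs from all genes was not tested. The knockdown samples lay wholly above or below the controls in 22 members (30.1%, against 25.6% of all genes), 18 of them higher and 4 lower. The difference was positive in 47 members (64.4% against 55.5%), and its median was 0.05 against 0.02.

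Arranged by mark, no pattern held across all the H3 methylation marks, and of these enzymes Kdm4a alone was called in the unblocked fit. With the replicate block Kdm6b and Dot1l passed as well. All 7 H3K4 methyltransferases were below 0, with a median of -0.10: Kmt2d (-0.15), Setd1b (-0.13), Kmt2a (-0.13), Kmt2b (-0.10), Kmt2c (-0.02), Setd1a (-0.01) and Setd7 (-0.01). Setd1b was the one whose groups did not overlap. None was called by limma in either fit, and 0 had an unadjusted p under 0.05. Of the 5 tested H3K4 demethylases, 4 were above 0, with a median of 0.13. For H3K9 the writers Ehmt1, Ehmt2 and Suv39h2 had 0.14, -0.02 and -0.04, and all 5 erasers were above 0, with a median of 0.11. For H3K27 the median was 0.03 over the PRC2 subunits and 0.17 over Kdm6a and Kdm6b, and all 4 writers lay on the same side of 0 as both erasers. For H3K36 the writer Setd2 had -0.17 and the erasers Kdm2a and Kdm2b had -0.01 and 0.05. Each enzyme was placed under a single mark, so Kdm4a (0.21), which acts on H3K9 and H3K36, was counted under H3K9 only. The H3K79 writer Dot1l had 0.28. The grouping by mark was chosen with the values known, the enzymes of a mark come from the same 6 samples, and whether writers and erasers differ was not tested.

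**Figure D3:**
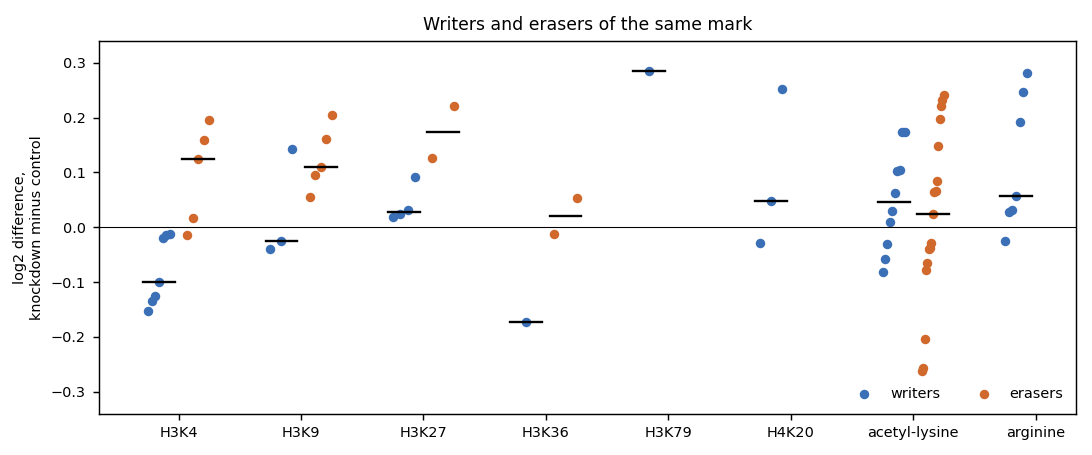
Difference between Pax6 knockdown and control (vertical axis, log2) of the tested writers (blue) and erasers (orange) with an assigned mark. Each is placed under a single mark (Kdm4a under H3K9), with black lines at the median. The 7 H3K4 writers lie below 0, and the H3K9 erasers lie above it. H3K79, H4K20 and arginine methylation have no eraser in the set.

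Replicate 1 stood apart in several of the H3K4 writers. Kmt2a read 10.52, 10.88 and 10.93 in the controls and 10.63, 10.76 and 10.57 in the knockdown samples, so control replicate 1 lay below every knockdown value and the other controls lay above them. Kmt2d read 9.64, 9.98 and 10.11 against 9.62, 9.82 and 9.84, and Kmt2b read 9.58, 9.94 and 9.91 against 9.58, 9.71 and 9.84. In both, replicate 1 was the lowest sample of each group. Ep300, Crebbp and Kdm6b had the same shape. In these 6 genes replicate 1 lay below the mean of the other replicates in both groups, by over 0.2 log2 units on average, which is 8.22% of the members against 1.67% of all tested genes. Deviations that large in the upward direction occurred in 10 members (13.7%) and in 1709 of all 11424 genes. Prmt9 was the extreme case, with 10.24, 9.73 and 9.71 in the controls and 10.35, 9.63 and 9.80 in the knockdown samples. For 47 of the 73 members (64.4%, against 67.1% of all genes), the range over the 3 replicate numbers was larger than the difference between the groups. Even without any effect of replicate or group such a range tends to exceed such a difference, so this count does not by itself show a replicate effect. What the number stands for is not given in the sources used here.

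**Figure D4:**
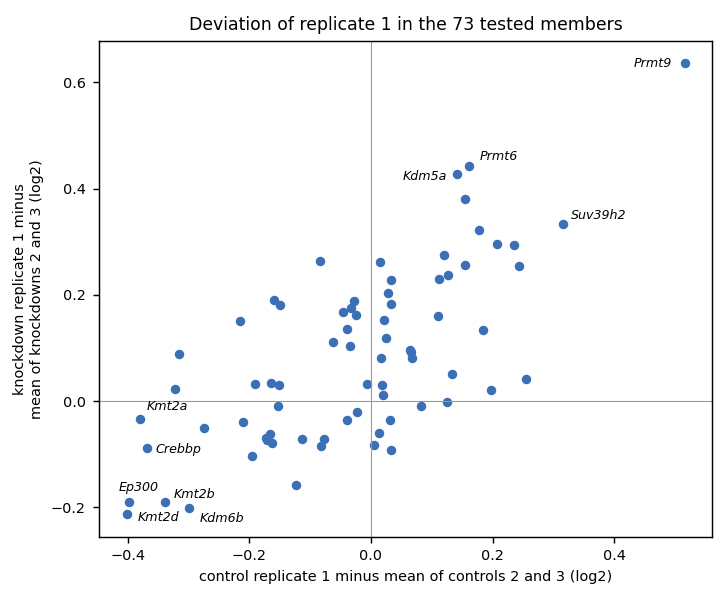
Deviation of replicate 1 from the mean of replicates 2 and 3 (log2) in the control group (horizontal axis) and in the Pax6 knockdown group (vertical axis), with 1 point per tested member. The lower left holds Kmt2d, Ep300, Kmt2b and Kdm6b, low in replicate 1 of both groups, and the upper right holds Prmt9, high in both.

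Partners of these enzymes and further histone modification genes, 147 by name, gave a similar picture. Of the 135 that were tested, limma called 4 (2.96%, against 6.67% of all tested genes), all higher, where 2.79% of all genes were called higher. Usp22, the deubiquitinase of the SAGA complex, read 12.50, 12.49 and 12.51 against 12.86, 12.71 and 12.77 (0.28, adjusted p = 0.0578). Rcor1, the CoREST scaffold that joins HDAC1 to the demethylase LSD1, read 10.78, 10.84 and 10.82 against 11.22, 11.05 and 11.02 (0.28, adjusted p = 0.0795). Mllt1, an acetyl-lysine reader that recruits DOT1L, was higher by 0.22 (adjusted p = 0.0932), and Rbbp5, a core subunit of the H3K4 methyltransferase complexes, by 0.23 (adjusted p = 0.0961). With the replicate block 20 were called (14.8%, against 17.9% of all genes), 18 higher and 2 lower, where 8.96% of all genes were called higher and 8.91% lower. Calls in the unblocked fit came to 1 of 17 ubiquitin enzymes, 1 of 25 deacetylase complex partners, 1 of 11 partners of the H3K4 methyltransferases and 1 of 22 readers (5.88%, 4%, 9.09% and 4.55%, against the same 6.67%).

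The unblocked limma fit called 0 genes in the other lists, whereas the fit with the replicate block, which called 17.9% of all genes, called some in each. Over all 11424 tested genes, 2146 had an unadjusted p under 0.05. Of 14 further methyltransferases and acetyltransferases, 4 had an unadjusted p under 0.05, with Nsd2, an H3K36 dimethyltransferase, lowest (0.22, adjusted p = 0.104). This was 1 of 7 for further demethylases (Phf8, 0.23, adjusted p = 0.170), 1 of 5 for PRC2 partners (Jarid2, 0.18, adjusted p = 0.230), 6 of 34 for partners of the acetyltransferases (Supt3, 0.18, adjusted p = 0.137) and 1 of 7 for DNA methylation enzymes (Tet1, 0.23, adjusted p = 0.232). With the block the calls in these lists came to 4 of 14, 3 of 7, 1 of 5, 3 of 34 and 1 of 7. The adjusted p of Nsd2, Phf8, Jarid2, Supt3 and Tet1 was then 0.0520, 0.0842, 0.0895, 0.0799 and 0.0447. All 11 H3K4 methyltransferase partners had a positive difference (median 0.05). The share was 74.8% over the 135 tested partners and further histone modification genes and 55.5% over all genes. The methyltransferases themselves lay below 0, but both groups held values close to 0, such as Paxip1 (0.002) and Setd7 (-0.012). Whether the groups differ was not tested.

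The 8 members with 2 probe sets (Eed, Hdac1, Hdac4, Kdm7a, Kmt2d, Setd1b, Setd2 and Setd3) had differences of the same sign on both. The direction of the 4 called members was the same in all alternative settings in which they were tested. Their place relative to 10% FDR was not: out of 18 alternatives Hdac1 passed in 8, Kmt5a in 9 and Kdm4a in 7, and Hdac9 passed in 6 of 17. Without knockdown replicate 2 all 4 passed.

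**Figure D5:**
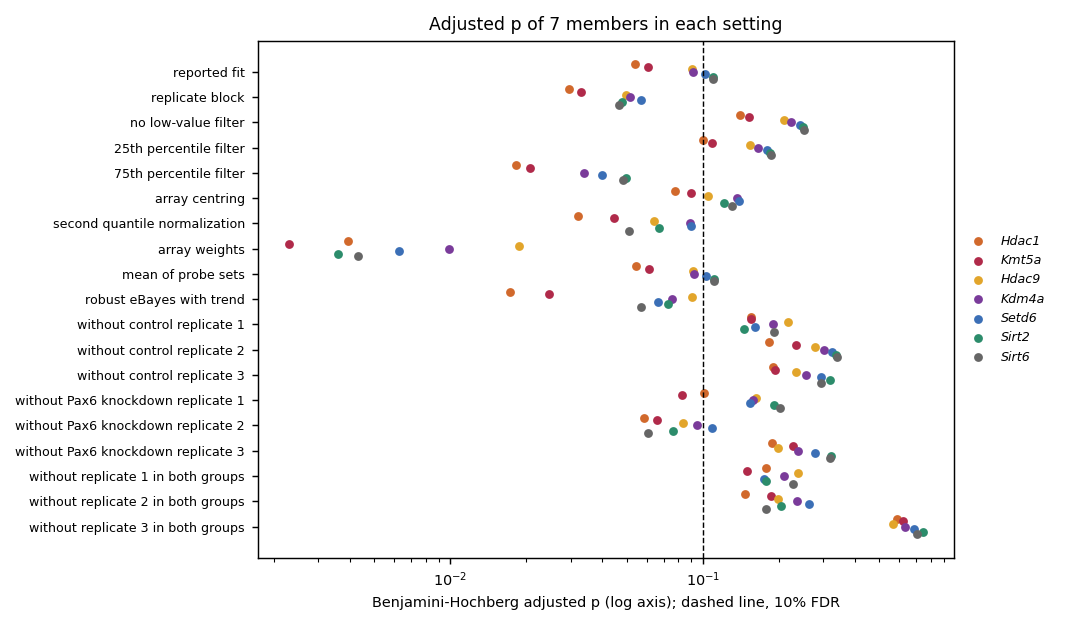
Adjusted p (horizontal axis, log scale) of the 4 called members and of Setd6, Sirt2 and Sirt6, the next 3 by adjusted p, in the reported fit and each alternative setting (rows). The dashed line is 10% FDR. The 4 called members lie left of it in the reported fit and right of it in most fits with an array left out.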

How the data were processed

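The authors hybridised RNA from each sample to 1 whole-transcript mouse gene array and deposited a table of log2 values per probe set. Per the methods these come from RMA background correction and quantile normalisation, and the submitters' processing notes name RMA and limma. Versions and annotation build: not given in the sources used here. A quantile-normalised scale hides a change in total RNA, and RMA compresses differences near background.

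From the 35556 probe sets, those with 1 gene symbol in the platform annotation were taken (21789), and of several per gene that of highest mean value, leaving 19938 genes. Probe sets with several symbols (1621) or none there (12146) were left out. Array medians were 7.49 to 7.59, and the precision is limited by the number of arrays. Groups came from the labels. The 2 groups were compared in limma 3.58.1 under R 4.3.3 (lmFit, eBayes, two-sided, no block) over the 11424 genes above the array median on at least 3 arrays. The procedure was tested on simulated data with independent noise, no replicate effect and planted changes larger than any member's difference. That test therefore does not cover changes of the size seen in the members.

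Same-numbered samples correlated in their deviations from the group means (0.57, 0.32 and 0.23 for replicates 1, 2 and 3), so the number was taken to pair them. This pairing comes from the data, not from a stated batch, and control replicate 3 with knockdown replicate 2 also correlated (0.18).

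Members, classes, marks and lists were chosen with earlier results of these data known. Named were Pax6, all members, and in each list the genes past 10% FDR or else the one with the lowest p, with per-array values for called members and for the 2 of lowest p in each class. Other genes named, and values per array beyond these, were chosen after their values were seen. Promoter sequences are from RefSeq. Alternatives were the replicate block, other low-value filters, array centring, a second quantile normalisation, array weights, the mean of probe sets, robust eBayes with trend, and leaving out arrays.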

Additional observations from a re-analysis of the deposited data

How the results depend on the processing

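Counts past 10% FDR moved with most settings. With the replicate block they were 8 writers, 8 erasers, 20 other histone modification genes and 2042 genes in all, against 1, 3, 4 and 762. With no low-value filter they were 0, 0, 0 and 245, and with a 25th percentile filter 0, 0, 0 and 389, with more genes tested. The 75th percentile filter gave 4 of 33 writers, 4 of 17 erasers, 13 of 100 other histone modification genes and 1046 of 5982 genes in all. Array centring gave 1, 1, 2 and 715. A second quantile normalisation gave 4, 6, 10 and 1383. Array weights gave 12, 12, 50 and 4239, and robust eBayes with trend gave 3, 5, 9 and 1054. Leaving out 1 array gave 0 to 3 writers, 0 to 6 erasers, 0 to 12 other histone modification genes and 51 to 1285 genes in all, and both arrays of a number 0 writers, 0 erasers, 0 other histone modification genes and 140, 96 and 7 genes in all for replicates 1, 2 and 3. The Pax6 difference was -0.42 to -0.32 with 1 array left out, and -0.42, -0.31 and -0.42 (adjusted p of 0.139, 0.135 and 0.453) without replicate 1, 2 or 3 in both groups. Suz12, not called, ranged from -0.034 (without control replicate 1) to 0.086 with 1 array left out. Of 73 tested members 29 changed sign in at least 1 of 18 settings, 0 of them called. Pax6 and Hdac9 were not tested under the 75th percentile filter. The cause of these shifts was not tested. Of the 4 called members 0 lost the call with the replicate block.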
